A study of Mus musculus with 11 samples.

Results

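Ankyrins and spectrins form the membrane skeleton that lines the inner face of the plasma membrane. They were described here through 7 genes, Ank1, Ank2, Ank3, Sptan1, Sptb, Sptbn1 and Sptbn4, taken by symbol from the 24421 gene rows of the count files. All 7 were present in all 11 libraries, and all 7 were among the 14982 genes kept by the filter on low counts. The study compared hippocampal RNA of the offspring of mice given particulate matter (PM) or normal saline (vehicle) through the nose during pregnancy. PM was given at 200 µg per kg. Dosing fell on gestational days 9, 12 and 15, birth on day 21, and tissue was taken when the offspring were 14 to 18 weeks old. No strain, genotype or number of litters is named in the labels, and whether libraries came from separate animals is not stated, so p-values rest on variation among libraries that may be partly technical. There were 5 vehicle and 6 PM libraries in 2 sets of deposit, the first (set 1) with 3 of each group and the second (set 2) with 2 of vehicle and 3 of PM.

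Ankyrins are adaptors. Their repeats hold ion channels, transporters and cell adhesion molecules, and a central domain binds beta-spectrin. Spectrins are long rods built from an alpha and a beta chain, joined into a lattice by short actin filaments, and in axons this lattice is periodic. Ank3 encodes ankyrin-G, which with beta-IV-spectrin (Sptbn4) organises the axon initial segment and nodes of Ranvier, where sodium and KCNQ potassium channels are clustered. Ank2 encodes ankyrin-B and Sptbn1 beta-II-spectrin, both spread along the axon shaft. Ank1 and Sptb encode ankyrin-R and beta-I-spectrin, best known from the red cell and also present in neurons. Sptan1 encodes alpha-II-spectrin, the alpha chain that pairs with the beta-spectrins in the brain.

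The libraries of the 2 groups differed in composition before any gene was compared. Gene counts summed to between 6012116 and 12496651 in a vehicle library and between 10938521 and 17763893 in a PM library. Reads that fell in no annotated gene were 60.9% to 62.0% of all counts in vehicle and 18.8% to 34.0% in PM libraries, and Rn45s, the ribosomal RNA precursor, averaged 1.57% of gene counts among vehicle and 9.97% among PM libraries. Malat1, a nuclear RNA, averaged 2.19% and 0.439%, and Lars2, a gene of mitochondrial translation, 0.00295% and 0.558%. Library preparation and group cannot be told apart in these values. Sex-linked composition was uneven: Xist, the RNA of the inactive X chromosome, was 1.74 to 3.16 CPM in the vehicle libraries of set 1 and 2278 and 2422 CPM in those of set 2, and from 0.355 to 919 CPM in PM. PM replicate 1 held both Xist (16.7 CPM) and the Y-linked Ddx3y (64.7 CPM), and PM replicate 3 held 207 CPM of Xist and 0.0716 CPM of Ddx3y. As markers of the labelled tissue, 7 of 7 hippocampal region genes were detected in a list chosen after the data were seen, with a summed level of 1292 to 1499 CPM in vehicle and 637 to 803 CPM in PM. Within it, Prox1, a marker of dentate granule cells, went from a mean of 145 CPM to 36.2 CPM (edgeR log2 fold change -1.97, adjusted p = 1.605e-08), Zbtb20, Bcl11b and Neurod6 also fell, and Spink8 and Fibcd1 rose. Over all tested genes 36.4% were lower and 32.7% higher. With a smooth trend in transcript length and GC content removed, Prox1 (-0.83), Zbtb20, Neurod6 and Spink8 kept their call. Bcl11b (-0.20, edgeR adjusted p = 0.1323) and Fibcd1 (0.20, edgeR adjusted p = 0.2111) then lost theirs. The part of these differences in the results that follow was not tested. In tissue RNA, fewer cells of a type and less RNA per cell cannot be told apart.

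The 7 genes lie on 7 chromosomes (GRCm38, GENCODE M21). Ank2 spans 577739 bases on chromosome 3 (126921612 to 127499350, minus strand) and Ank3 spans 628666 bases on chromosome 10 (69398773 to 70027438, plus strand). Ank1 lies on chromosome 8 (22974844 to 23150497, plus strand), Sptan1 on chromosome 2 (29965560 to 30031451, plus strand) and Sptb on chromosome 12 (76580488 to 76710547, minus strand). Sptbn1 lies on chromosome 11 (30099395 to 30268175, minus strand) and Sptbn4 on chromosome 7 (27356383 to 27447686, minus strand). Their longest annotated transcripts run from 8018 bases in Sptan1 to 14305 in Ank2, and all 7 fall in the longest of 5 equal groups of tested genes. They differ in base composition, from 47.6% GC in the longest Sptbn1 transcript to 63.7% in that of Sptbn4. The counts are sums over exons, so isoforms such as the giant-exon forms of Ank2 and Ank3 could not be separated. Exons of Ank1 share 862 bases with Gm15816 on the opposite strand, whose log2 fold change was 0.13 (edgeR adjusted p = 0.7297). Ank1 had 316 to 627 counts per library.

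RefSeq promoter entries (GRCm38.p6) matched 5 of the 7 genes, with 12 start sites in all. No entry was matched for Ank1 and Ank3. The 250 bases before a start are shown for Sptan1, Sptb and an internal start of Sptbn4, a gene that fell, a gene that did not pass and a gene that rose, in windows that hold no annotated exon base. Capitals mark the GC box GGGCGG, searched on both strands with overlaps counted, which 32.7% of 32851 promoter windows of this length held.
Sptan1, chr2:29965310-29965559, plus strand: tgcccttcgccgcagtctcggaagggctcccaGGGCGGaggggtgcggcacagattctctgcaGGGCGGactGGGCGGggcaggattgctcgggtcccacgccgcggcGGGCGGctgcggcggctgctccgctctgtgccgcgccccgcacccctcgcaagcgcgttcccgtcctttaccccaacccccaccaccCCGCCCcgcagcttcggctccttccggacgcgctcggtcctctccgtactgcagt
Sptb, chr12:76710548-76710797, minus strand: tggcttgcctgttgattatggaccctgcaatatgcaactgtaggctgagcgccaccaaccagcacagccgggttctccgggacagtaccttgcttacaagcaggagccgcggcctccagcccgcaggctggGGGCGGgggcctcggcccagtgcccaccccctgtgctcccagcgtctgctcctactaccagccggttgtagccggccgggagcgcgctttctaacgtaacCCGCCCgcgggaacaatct
Sptbn4, second start, chr7:27396554-27396803, minus strand: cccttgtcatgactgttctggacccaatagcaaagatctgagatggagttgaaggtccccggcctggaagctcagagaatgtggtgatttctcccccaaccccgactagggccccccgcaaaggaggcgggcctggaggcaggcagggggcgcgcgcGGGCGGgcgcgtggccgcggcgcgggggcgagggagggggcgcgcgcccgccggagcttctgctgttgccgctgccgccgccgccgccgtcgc
The Sptan1 window held 5 GC boxes and 73.6% GC, the Sptb window 2 and 65.2%, and the Sptbn4 window 1 and 71.6%, against a median of 52.4% GC over all windows. The other windows varied: the 4 of Ank2, which overlap annotated exons, held 0 GC boxes, the 2 of Sptbn1 held 0 and 1, and the other 3 of Sptbn4 held 2, 4 and 1. The number of boxes did not sort with the direction of change. None of the 3 windows shown held TATAAA, which 12.4% of all windows held, while the first window of Ank2 held 1. A match describes these letters only.

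In PM, 5 of the 7 genes were lower than in vehicle, 1 was higher and 1 did not pass the test, where 36.4% of all tested genes were called lower and 32.7% higher. The 3 ankyrins and the broadly expressed spectrins Sptan1 and Sptbn1 fell, Sptbn4 rose, and Sptb did not pass. The median log2 fold change was -0.73 for the 7 genes and -0.04 for all tested genes. In every gene that fell, the highest PM library was lower than the lowest vehicle library, a pattern that 28.1% of tested genes had, and no gene of the 7 had the opposite pattern, which 24.3% had; 69.1% of genes were called in either direction. These directions rest on counts with no correction for transcript length or base composition. In these libraries log2 fold changes went down with length, with a median of 0.59 in the shortest and -0.85 in the longest of 5 equal groups of genes. With a smooth trend in length and GC content removed from each library, the median of the 7 genes was 0.47 against 0.07 for all tested genes, 5 were called higher and 1 lower, and Ank2, Sptan1 and Sptbn1 were called in the opposite direction. Of all tested genes 36.1% were then higher and 28.4% lower, 64.5% together. Both values are given for each gene.

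In set 1, 5 of the 7 were lower and 2 did not pass, where 38.9% of tested genes were lower and 32.1% higher (71% in either direction). In set 2, 5 were lower, 1 (Sptbn4) was higher and 1 (Sptb) did not pass, where 32.5% were lower and 32.3% higher (64.8% together). The same 5 genes, Ank1, Ank2, Ank3, Sptan1 and Sptbn1, had their PM libraries below vehicle without overlap in each set, a pattern of 40.7% of tested genes in set 1 and 38.9% in set 2. None had PM above vehicle without overlap in set 1 (33.1% of genes, 73.8% with either pattern), and Sptb and Sptbn4 did in set 2 (39.5%, and 78.3% with either).

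**Figure D1:**
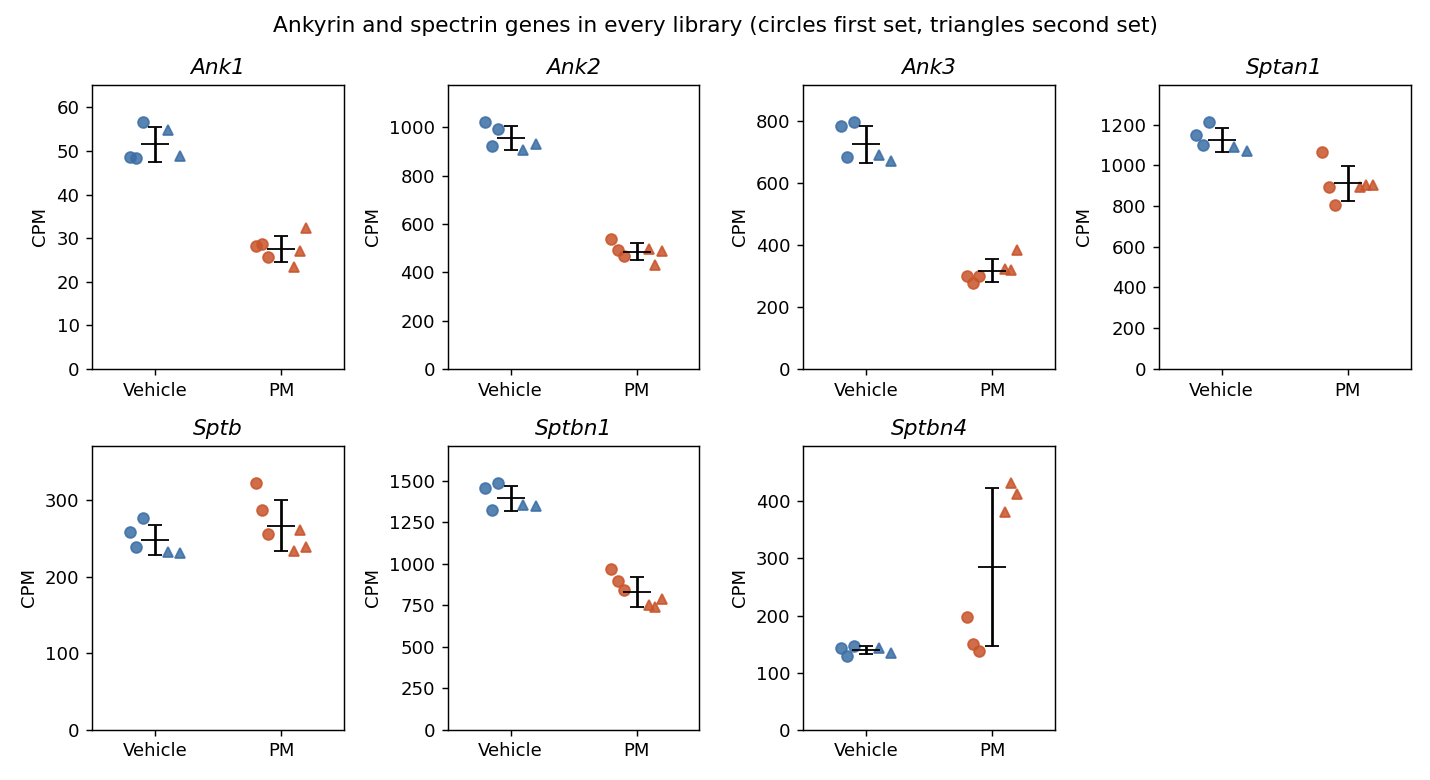
CPM (linear axis from 0) of the 7 genes in each library, vehicle in blue and PM in orange, circles for the first set and triangles for the second, with the mean and SD of each group in black. The PM points of Ank1, Ank2, Ank3, Sptan1 and Sptbn1 lie below all vehicle points, those of Sptb overlap them, and those of Sptbn4 rise above them in set 2, at 382 to 433 CPM.

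Ank3, the ankyrin of the initial segment, had the largest fall of the 7. Its level was 785, 684, 798, 692 and 673 CPM (counts scaled to library size with the TMM method) in vehicle replicates 1 to 5, and 277 CPM at the lowest, 310 at the median and 384 at the highest of the 6 PM libraries. The highest PM library stood well below the lowest vehicle library. The mean went from 727 ± 59.8 CPM (SD over 5 libraries) in vehicle to 317.5 ± 36.7 CPM (SD over 6 libraries) in PM, a 2.31-fold fall (log2 fold change -1.20, SE 0.093, edgeR adjusted p = 9.912e-08). It was -1.37 (SE 0.099) in set 1 and -0.99 (SE 0.11) in set 2. Their difference missed the threshold (0.38, SE 0.15, edgeR adjusted p = 0.06343), but passed without vehicle replicate 2, PM replicate 1 or PM replicate 5 (0.44, 0.39 and 0.42, adjusted p = 0.02848, 0.04081 and 0.04739). Without PM replicate 6 it was 0.18 (edgeR adjusted p = 0.3566). With the trend removed no change was detected (log2 fold change 0.05, SE 0.080, edgeR adjusted p = 0.5768). With the summed exon length in place of the longest transcript, an alternative added after seeing the data, it was called higher (0.44, adjusted p = 0.0003566).

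Ank2, ankyrin-B of the axon shaft, was 1022, 922, 993, 905 and 931 CPM in vehicle replicates 1 to 5 and 430, 490 and 537 CPM at the lowest, median and highest PM library. In both sets every PM library was under every vehicle library. The mean of 955 ± 50.4 CPM in vehicle fell to 485 ± 35.5 CPM, 1.96-fold (log2 fold change -0.97, SE 0.071, edgeR adjusted p = 6.318e-08), with -0.97 in set 1 and -0.96 in set 2. With the trend removed the sign turned, to 0.47 (SE 0.078, edgeR adjusted p = 0.0001247).

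Ank1, ankyrin-R, had the fewest counts of the 7, which carried the largest counting error, 3.99% to 5.63% of the value per library. It was 48.7, 48.5, 56.7, 54.9 and 48.8 CPM in vehicle replicates 1 to 5 and 23.5, 27.6 and 32.3 CPM at the lowest, median and highest PM library, with no overlap. The mean of 51.5 ± 3.95 CPM in vehicle fell to 27.5 ± 3.00 CPM, 1.87-fold (log2 fold change -0.90, SE 0.094, edgeR adjusted p = 1.563e-06), by -0.90 in set 1 and -0.91 in set 2. It was the only gene of the 7 still called lower with the trend removed (log2 fold change -0.29, SE 0.11, edgeR adjusted p = 0.04096). That call was lost with a replicate block added (-0.30, edgeR adjusted p = 0.09896), and with the length trend alone removed the sign turned (0.17, edgeR adjusted p = 0.1148). Within set 1 the value with the length and GC trend removed was -0.04 (adjusted p = 0.7404).

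The red cell genes of the list had low counts in all libraries. Of 15 erythroid genes only Alas2, the heme synthesis enzyme, was kept by the count filter, and the 5 globin rows of the list were listed at 0 in all 11 libraries. Whether those globin rows could take reads is not known, so their 0 does not show that globin RNA was absent. The summed level of the erythroid list was 17.1 to 19.5 CPM in vehicle and 3.6 to 10.2 CPM in PM. Alas2 fell to a mean of 5.33 ± 2.53 CPM in PM (edgeR log2 fold change -1.60 with SE 0.28, adjusted p = 0.0001741), in the same direction as Ank1, while Sptb did not pass. The part of this in the Ank1 result was not tested.

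Sptan1, the alpha chain, had the smallest fall. It was 1148, 1100, 1213, 1090 and 1069 CPM in vehicle replicates 1 to 5 and 805, 899 and 1066 CPM at the lowest, median and highest PM library. PM replicate 1, at 1066 CPM, lay just under the lowest vehicle library. The mean of 1124 ± 57.4 CPM in vehicle fell to 911 ± 84.8 CPM, 1.23-fold (log2 fold change -0.30, SE 0.078, edgeR adjusted p = 0.003981). The values by set were -0.32 (SE 0.098) and -0.26 (SE 0.11, edgeR adjusted p = 0.04608). The set 2 call was lost without any 1 of 8 of the 11 libraries (edgeR adjusted p up to 0.1626), and the set 1 call without PM replicate 6 (-0.23, edgeR adjusted p = 0.05435). Fitted on the first set alone it did not pass (-0.23, adjusted p = 0.08082), nor with no filter on low counts (-0.20, adjusted p = 0.06587), and with the trend removed it turned to 0.50 (SE 0.066, adjusted p = 1.669e-05).

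Among the beta-spectrins, Sptbn1, beta-II-spectrin, fell. It was 1456, 1323, 1488, 1352 and 1350 CPM in vehicle replicates 1 to 5 and 741, 814 and 971 CPM at the lowest, median and highest PM library. The mean of 1394 ± 73.2 CPM in vehicle fell to 831 ± 89.2 CPM, 1.66-fold (log2 fold change -0.73, SE 0.070, edgeR adjusted p = 7.078e-07). All PM libraries were under vehicle in each set, with changes of -0.66 and -0.83. With the trend removed the value was 0.47 (SE 0.071, adjusted p = 5.076e-05).

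Sptb, beta-I-spectrin, was 258, 239, 277, 233 and 231 CPM in vehicle replicates 1 to 5 and 234, 259 and 323 CPM at the lowest, median and highest PM library, so the groups overlapped. The means were 248 ± 19.5 and 267 ± 33.5 CPM (log2 fold change 0.13, SE 0.080, 95% interval -0.05 to 0.30, edgeR adjusted p = 0.1785). Sptb was past the threshold with upper quartile scaling (0.20, adjusted p = 0.0352), on the first set alone (0.26, adjusted p = 0.04662) and with the trend removed (0.94, SE 0.11, adjusted p = 5.795e-06). With the GC trend alone removed it was -0.21 (edgeR adjusted p = 0.06134).

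Sptbn4, beta-IV-spectrin, was the only gene of the 7 that rose, and its rise lay mainly in set 2. In vehicle it was 143, 130, 147, 143 and 134 CPM in replicates 1 to 5. PM replicates 1 to 3, of set 1, had 198, 150 and 137 CPM, and PM replicates 4 to 6, of set 2, had 382, 433 and 413 CPM. Of the first 3, PM replicate 3 lay inside the vehicle range and PM replicates 1 and 2 above it. The other 3 stood further above every vehicle library. Over all libraries the means were 139 ± 7.24 and 285 ± 138 CPM (edgeR log2 fold change 0.79 with SE 0.22, adjusted p = 0.006059). The effect was 0.21 (SE 0.12, adjusted p = 0.1205) in set 1 and 1.56 (SE 0.14, adjusted p = 7.37e-08) in set 2. Set 2 minus set 1 was 1.35 (SE 0.18, edgeR adjusted p = 9.513e-05). Sptbn4 was the only gene of the 7 whose effect differed between sets, where 17.5% of tested genes had a higher and 12.1% a lower effect in set 2 (29.6% in all). Without PM replicate 3 or PM replicate 6 the first-set effect passed, at 0.31 and 0.30 (edgeR adjusted p = 0.02058 and 0.03614), and without PM replicate 1 it was 0.037 (edgeR adjusted p = 0.7293).

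In the PM libraries of set 2, PM replicate 6, with Xist at 919 CPM, had 413 CPM of Sptbn4, and PM replicates 4 and 5, with Xist at 0.668 and 0.582 CPM, had 382 and 433. All set 1 vehicle libraries were low in Xist and both set 2 vehicle libraries high, so set and sex-linked composition cannot be told apart in vehicle. Their part in the Sptbn4 result was not tested. The sets also differed for other genes of the same kind. The 302 genes in both the longest group by transcript and the richest group in GC, which include Sptbn4, Sptb and Ank1, had a median log2 fold change of -0.64 in set 1 and 0.12 in set 2. Sptbn4 went from 0.21 to 1.56, Sptb from 0.16 to 0.08 and Ank1 from -0.90 to -0.91. With the trend removed the difference for Sptbn4 was 0.79 (edgeR adjusted p = 0.0001078), and its effect was 1.37 (SE 0.13) over all libraries and 1.03 within set 1, where it then passed (adjusted p = 2.753e-09). Ank1, Sptb and Sptbn1 then had a lower effect in set 2 (-0.56, -0.67 and -0.30, adjusted p = 0.01617, 0.0004202 and 0.04229). With the GC trend alone removed, an alternative added after seeing the data, the effect was 0.31 and no longer past the threshold (adjusted p = 0.08955).

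**Figure D2:**
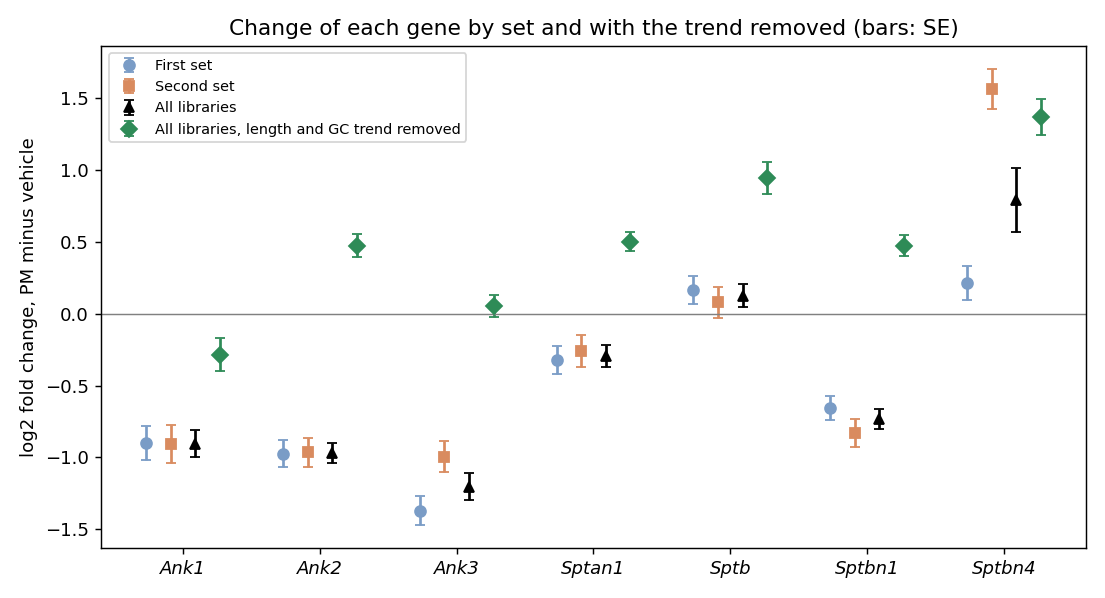
Log2 fold change, PM minus vehicle, of each gene in set 1 (circles), the second set (squares), all libraries (triangles) and all libraries after removal of that trend with length and GC (diamonds), with SE as bars. Removing the trend moves every gene up, and Ank2, Sptan1 and Sptbn1 go from below 0 to between 0.47 and 0.50.

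The 7 genes can be set beside the longest group of genes, split by base composition, although its median length of 6876.5 bases is below that of each of the 7. In that group the median log2 fold change over all libraries was -1.02 in the second GC group, which holds Sptbn1 (-0.73), and -0.82 in the third, which holds Ank2 (-0.97) and Ank3 (-1.20). It was -0.50 in the fourth GC group, that of Sptan1 (-0.30), and -0.30 in the fifth, that of Ank1 (-0.90), Sptb (0.13) and Sptbn4 (0.79). In set 2 the median of the fifth GC group was 0.12 and Sptb was at 0.08. In the fifth GC group, over all libraries, 13.9% of long genes were called higher and 43.7% lower.

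**Figure D3:**
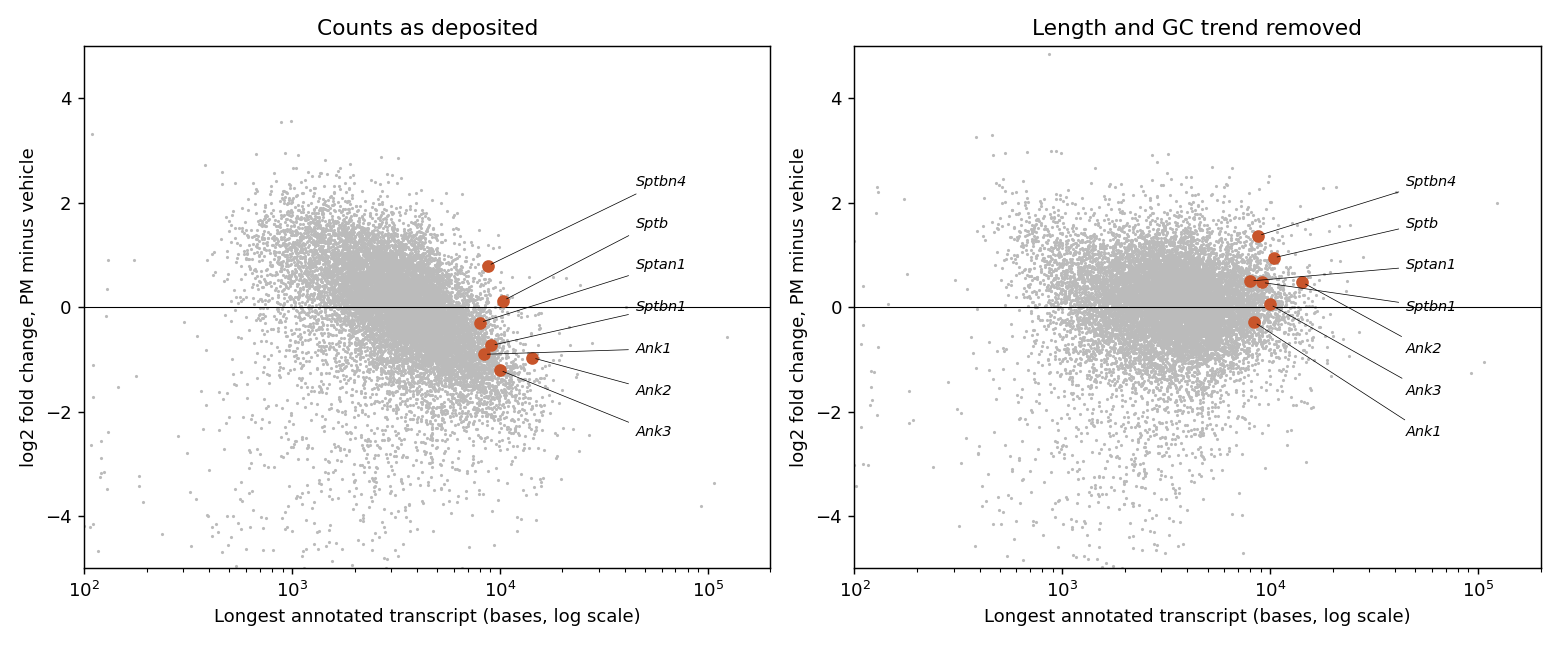
Log2 fold change, PM minus vehicle, of tested genes (grey) against the longest annotated transcript (log scale), before and after removal of the length and GC trend, with the 7 genes in orange; genes outside the axes are not drawn. On the left the 7 genes sit at the long end of a falling cloud, and on the right the cloud is level and 6 of the 7 lie above 0.

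Ratios of members within a library do not depend on how libraries are scaled, although they still depend on each gene's length and GC content. Of 5 ratios, 3 differed between groups (two-sided exact permutation tests of the group labels, adjusted over the 5). These tests permute labels across both sets and do not adjust for set, unlike the fit of single genes. The log2 ratio of Sptb to Sptbn1 counts was -2.49 ± 0.049 in vehicle and -1.64 ± 0.085 in PM, 1.81-fold higher in PM with no overlap (exact permutation adjusted p = 0.010823), by 0.82 in set 1 and 0.91 in set 2. That of Sptbn4 to Sptbn1 was -3.32 ± 0.047 in vehicle and -1.69 ± 0.89 in PM, also without overlap (exact permutation adjusted p = 0.016234), by 0.85 in set 1 and 2.39 in set 2. That of Ank1 to Ank3 was higher by 0.29 in PM, with overlapping libraries (exact permutation adjusted p = 0.025253), by 0.47 in set 1 and 0.08 in set 2, and without vehicle replicate 1 it missed the threshold (0.24, adjusted p = 0.07143). With labels permuted within sets, an alternative added after seeing the data with 200 arrangements, Ank1 to Ank3 missed the threshold (0.27, exact permutation adjusted p = 0.05). The other 2 kept their call (exact permutation adjusted p = 0.0125 each).

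The log2 ratio of Ank2 to Ank3 was 0.40 ± 0.057 in vehicle and 0.61 ± 0.21 in PM and missed the threshold (exact permutation adjusted p = 0.067641). Its difference between groups passed without PM replicate 5 (0.26, exact permutation adjusted p = 0.04762) or PM replicate 6 (0.27, adjusted p = 0.02976). The alpha chain against the summed beta chains of the list missed the threshold too. The log2 ratio of Sptan1 to Sptb, Sptbn1 and Sptbn4 together was -0.66 ± 0.028 in vehicle and -0.61 ± 0.068 in PM (exact permutation adjusted p = 0.080087). Its difference between groups passed without PM replicate 5 or PM replicate 6, at 0.071 in each case (exact permutation adjusted p = 0.04762). With labels permuted within sets, Ank2 to Ank3 and Sptan1 to the beta chains also missed the threshold (exact permutation adjusted p = 0.05 each). The exact test cannot go below p = 0.1 inside either set.

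**Figure D4:**
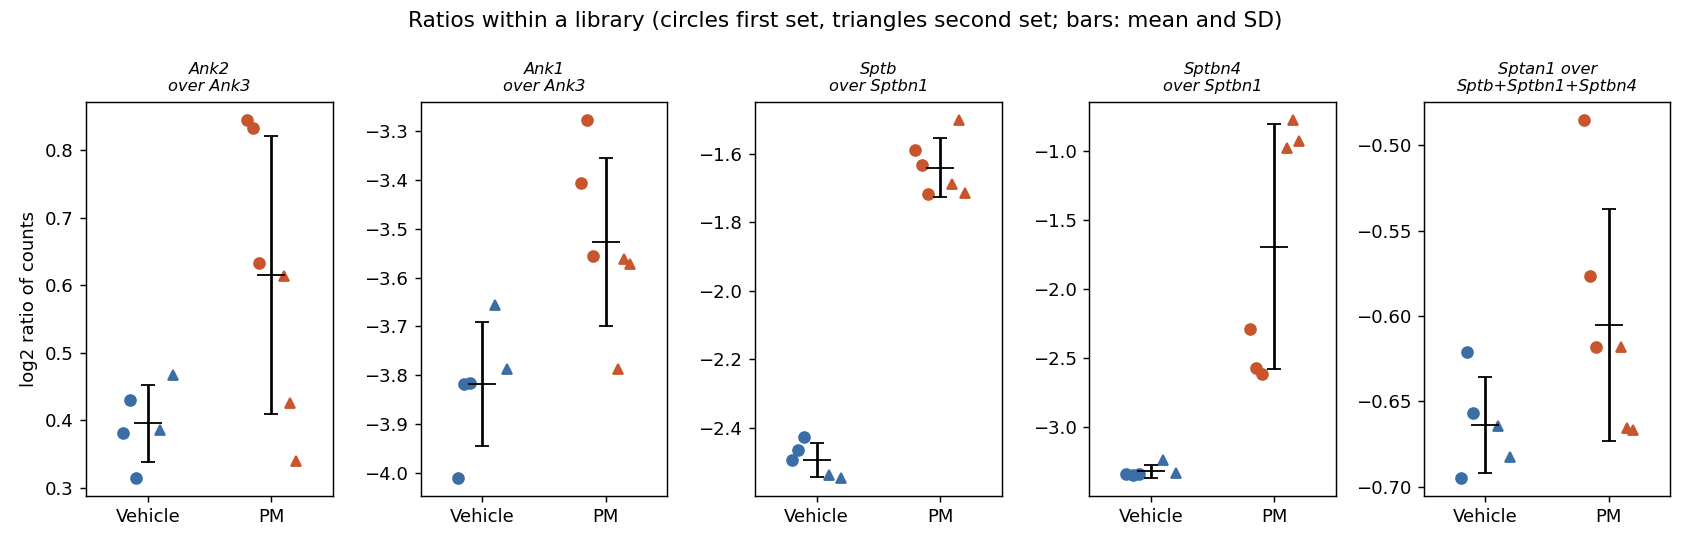
Log2 ratio of counts of pairs of genes in each library, vehicle in blue and PM in orange, circles for the first set and triangles for the second, with mean and SD in black; each panel has its own axis, which does not start at 0. Sptb and Sptbn4 stand higher against Sptbn1 in all 6 PM libraries, and the second-set PM libraries lie highest for Sptbn4.

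The mix of the 3 beta-spectrins of the list is a level per kilobase of exon, as a share of their summed level. Sptbn1 took 69.4% ± 0.298 (SD) in vehicle and 56.0% ± 1.84 in PM of set 1, and 69.7% ± 0.483 and 40.9% ± 1.80 in set 2. Sptbn4 took 12.5% ± 0.064 in vehicle and 18.2% ± 1.66 in PM of set 1, and 13.1% ± 0.523 and 40.2% ± 1.21 in set 2. Sptb took 18.1% ± 0.349 in vehicle and 25.8% ± 0.503 in PM of set 1, and 17.2% ± 0.0397 and 19.0% ± 0.744 in set 2. Over both sets it took 17.8% ± 0.547 in vehicle and 22.4% ± 3.78 in PM. With the longest transcript as the length, Sptbn1 took 79.4% in vehicle and 61.3% in PM. These shares follow from the same counts as the ratios and were given no test of their own.

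**Figure D5:**
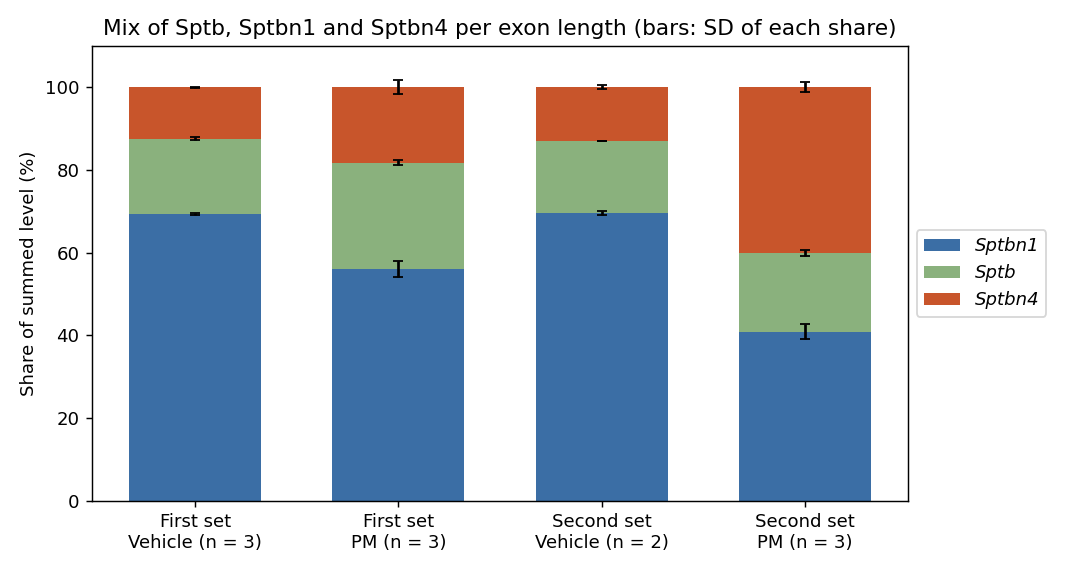
Share of Sptb, Sptbn1 and Sptbn4 in their summed level per exon length (%), as stacked bars for each group and set, with the SD of each share. The Sptbn1 share is smaller in PM in both sets, at 56.0% and 40.9%, and the Sptbn4 share reaches 40.2% in the PM libraries of set 2.

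In order of level per kilobase of exon in vehicle, Sptan1 (84.1 ± 4.29 CPM per kilobase) and Sptbn1 (79.7 ± 4.19) led the 7 and overlapped. Ank2 (27.3 ± 1.44) followed, then Ank3 (20.9 ± 1.72) and Sptb (20.4 ± 1.60), which overlapped, then Sptbn4 (14.6 ± 0.757) and Ank1 (3.81 ± 0.292). In PM the order was Sptan1 (68.2 ± 6.34), Sptbn1 (47.5 ± 5.10), Sptbn4 (29.9 ± 14.4), Sptb (22.0 ± 2.75), Ank2 (13.8 ± 1.02), Ank3 (9.11 ± 1.05) and Ank1 (2.04 ± 0.222). Sptbn4 libraries overlapped those of Sptbn1 and of Sptb there, and its place differed by set. In set 1 PM it was 14.4 to 20.7 CPM per kilobase, below every Sptb library (21.1 to 26.6), and in set 2 PM it was 40.0 to 45.3. The places of Ank2 and Ank3 depend on the length used, since their exons together cover 35004 and 34838 bases and their longest transcripts 14305 and 9963. By the longest transcript, Sptbn1 came before Sptan1 and Ank3 before Ank2 in vehicle. In PM the order by the longest transcript was Sptan1, Sptbn1, Ank2, Sptbn4, Ank3, Sptb and Ank1.

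The partners of the initial segment and node, a list of 31 genes, had 19 lower, 4 higher and 8 not passed, with a median log2 fold change of -0.39, where 36.4% of all tested genes were lower and 32.7% higher. Tnr, tenascin-R of the nodal matrix, fell from 194 ± 17.2 to 36.1 ± 7.06 CPM (-2.41 in log2, SE 0.12). Nrcam, a cell adhesion molecule bound by ankyrin-G, fell from 829 ± 19.8 to 252 ± 38.4 CPM (-1.71, SE 0.086). With the trend removed 7 of the 31 were higher and 10 lower, with a median of -0.07, where 36.1% of all tested genes were higher and 28.4% lower, and Tnr (-0.99) and Nrcam (-0.91) kept their direction and their call.

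Of 20 genes of membrane proteins that ankyrins bind and of their relatives, 13 were lower, 3 higher and 4 not passed, with a median of -0.81. With the trend removed 10 were lower and 3 higher, with a median of -0.21. Of all tested genes 36.4% were lower and 32.7% higher, or 28.4% and 36.1% with the trend removed. Slc8a1, a sodium-calcium exchanger, fell from 1070 ± 42.9 to 199 ± 47.9 CPM (-2.42 in log2, SE 0.14, and -0.56 with the trend removed). Cdh2, N-cadherin, fell with a log2 fold change of -1.19 (-0.89 with the trend removed) and Dag1, dystroglycan, with -0.89 (-0.59).

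The genes of the spectrin-actin junction, which include adducins, protein 4.1 genes and tropomodulins, moved both ways, with 5 of 22 higher, 8 lower and 9 not passed and a median of -0.13. After removal of the trend 9 were higher and 3 lower, with a median of 0.09. Tmod2, a neuronal tropomodulin that caps actin filaments, fell from 948 ± 43.3 to 440 ± 113 CPM (-1.11, SE 0.11), but was 0.32 with the trend removed (adjusted p = 0.01462). Mpp1, a palmitoylated scaffold that binds protein 4.1, rose with 0.49 (SE 0.078) and Capzb, a subunit of the actin capping protein, with 0.38 (SE 0.069). Capzb was -0.06 with the trend removed (adjusted p = 0.4476). Among 9 genes of calpains, their inhibitor and caspases, which include the proteases that cleave spectrin, 5 were higher, 2 lower and 2 not passed, and with the trend removed 4 were higher and 3 lower. Over all tested genes 32.7% were higher and 36.4% lower, or 36.1% and 28.4% with the trend removed. Capn10 rose with 1.04 (SE 0.11) and Capn2, the catalytic subunit of m-calpain, from 44.4 ± 4.53 to 75.5 ± 5.68 CPM (0.77, SE 0.086), while Casp2 fell from a mean of 17.9 CPM to 9.03 CPM.

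Markers of other cell types moved beside these genes, against the same 32.7% higher and 36.4% lower over all tested genes. The summed level of 12 neuronal markers was 8081 to 8669 CPM in vehicle and 7076 to 8853 CPM in PM, and 7 of them were higher, 4 lower and 1 not passed. The oligodendrocyte list had 6 of 10 higher and 4 not passed, with a summed level of 4011 to 5125 CPM in vehicle and 4321 to 9913 CPM in PM. Of 10 microglia markers 8 were higher and 2 not passed (245 to 269 CPM summed in vehicle, 330 to 501 in PM). The astrocyte list of 10 had 5 higher, 3 lower and 2 without a call (7337 to 7755 CPM summed in vehicle, 3789 to 6677 in PM). Most of that sum was Slc1a2, a glutamate transporter, which fell from a mean of 5757 CPM to 2607 CPM, while Aldh1l1, S100b, Aldoc, Fgfr3 and Gfap rose. After removal of the trend 8 astrocyte markers were higher and 1 lower, where 36.1% of all tested genes were higher and 28.4% lower. Slc1a2 was then among those called higher (log2 fold change 0.34, edgeR adjusted p = 0.04639). The 1 called lower was Sox9 (-0.27, edgeR adjusted p = 0.004542). Endothelial markers had 4 of 8 higher and mural markers 5 of 8 higher and 2 lower. Choroid plexus markers ranged from 70.9 to 1254 CPM in vehicle and from 32.8 to 2501 CPM in PM, with 1 of 5 tested genes lower and 4 not passed. The part of these markers in the ankyrin and spectrin results was not tested.

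Across the 11 libraries the 5 genes that fell followed each other in log2 CPM, with Pearson r from 0.85 (Ank3 and Sptan1) to 0.98 (Ank2 and Sptbn1). Sptb had r of -0.39 to 0.08 with the other 6, and Sptbn4 was negatively related to each, with r of -0.76 with Sptbn1. These values describe 11 libraries that share the group difference. Of 14496 other genes with a mean of at least 1 CPM, those most like Ank3 were 4933417G07Rik (r 0.996) and Rnf111 (0.994), and those most like Ank2 were Cntnap2 and Robo1 (0.997 each). Ank1 was most like Cntnap5b and Fezf2, Sptan1 most like Grid1 and Sort1, and Sptbn1 most like A830010M20Rik and Nr2c2. Sptb was most like Kbtbd11 (0.978), whose means were 205 ± 14.8 and 223 ± 35.6 CPM, and Phactr1 (0.898). Sptbn4 was most like Ano8 (0.996) and Stx2 (0.992). The log2 fold change of Ano8 was 0.30 in set 1 and 1.44 in set 2.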

How the data were processed

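RNA of mouse hippocampus was sequenced as 100-base read pairs after removal of ribosomal RNA, per the labels' protocols, although the labels' molecule field names polyA RNA. The deposited files hold 1 raw count per gene symbol and library. Per the submitters' processing notes, FastQC 0.11.9, Trimmomatic 0.36, STAR, SAMtools 1.9, Picard 2.9.2 and HTSeq 0.9.1 were used, and the builds named are mm10 and hg19. The strand setting and annotation are not given in the sources used here. HTSeq summary rows were left out of all library totals.

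Counts were fitted with edgeR 4.0.16 in R 4.3.3 (TMM scaling, genes kept by filterByExpr by group with a minimum count of 10, robust quasi-likelihood test, PM minus vehicle adjusted for set, two-sided p, Benjamini-Hochberg over all 14982 tested genes, threshold 0.05). Effects in each set came from 1 model with group and set crossed. Standard errors were derived from the log2 fold change and the F statistic. CPM use TMM-scaled library sizes. Length and GC content of the longest transcript came from GENCODE M21, which matched 96.3% of tested genes. The trend was fitted per library with mgcv 1.9.3 and used as an offset. DESeq2 1.42.0 was an alternative. The model fit was checked on simulated counts with few changed genes and no set, length or GC effect. That check does not bear on scaling or error rates where most genes are called.

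The 7 genes, the gene lists and the tests were chosen with earlier results of these data known. The named genes are the 7 members, up to 3 genes of smallest p of each partner list and, for each member, the 2 genes most like it; some items that this rule covers are not reported here. Symbols of the lists absent from the files were matched through RefSeq synonyms. In a row that can take reads, a count of 0 allows up to 3 counts, 0.490 CPM in the shallowest library and 0.177 in the deepest. Libraries of the same group differed by more than sampling noise (chi-square per degree of freedom at least 2.01), so none was merged.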

Additional observations from a re-analysis of the deposited data

Results flagged for a closer look

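The effect of PM on Sptbn4 differed between the sets of deposit, by 1.35 on the log2 scale (second minus first, edgeR adjusted p = 9.513e-05). In the log2 ratio of Sptbn4 to Sptbn1, vehicle replicate 4 stood apart from the other vehicle libraries, at -3.24 against a group mean of -3.32, by Dixon's criterion. It is still below all 6 PM libraries, the lowest of which is at -2.62. Of 24 groups of values examined this way 1 stood out, and chance gives about 1 in 20.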

How the results depend on the processing

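Leaving out 1 library at a time ended no call for the 7 genes over all libraries and turned no direction. The log2 fold changes then ranged from -0.93 to -0.86 for Ank1, from -0.998 to -0.93 for Ank2, from -1.25 to -1.16 for Ank3, from -0.35 to -0.25 for Sptan1, from 0.07 to 0.19 for Sptb, from -0.77 to -0.68 for Sptbn1 and from 0.60 to 0.93 for Sptbn4. Genes called higher ranged from 4657 to 5096 and lower from 5021 to 5435. Within set 1 they ranged from 4427 to 5304 and from 5273 to 5844, and within set 2 from 3900 to 4996 and from 4043 to 5024. Genes whose effect differed between sets ranged from 1653 to 3151 higher and from 747 to 2461 lower, against 2618 and 1810 with all libraries; the lowest counts of both were without vehicle replicate 5. The Sptan1 effect within set 2 missed the threshold without any of 8 libraries (-0.28 to -0.25), and within set 1 without PM replicate 6 (-0.23). The differences in log2 ratio, PM minus vehicle, ranged from 0.17 to 0.27 for Ank2 to Ank3 and from 0.24 to 0.34 for Ank1 to Ank3. They ranged from 0.83 to 0.87 for Sptb to Sptbn1, from 1.44 to 1.81 for Sptbn4 to Sptbn1 and from 0.035 to 0.071 for Sptan1 to the beta chains. With labels permuted within sets, an alternative added later, Ank1 to Ank3 missed the threshold (0.27).

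Sptan1 lost its call with no filter (-0.20) and on set 1 alone (-0.23), and Sptbn4 on set 1 alone (0.31). Sptb gained one with upper quartile scaling (0.20) and on set 1 alone (0.26). Calls of the 7 genes did not change with DESeq2, its size factors in edgeR, a minimum mean of 1 CPM, no set covariate, set 2 alone or 6 abundant RNAs left out.

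With the length and GC trend removed, log2 fold changes were 0.47 for Ank2, 0.053 for Ank3, 0.50 for Sptan1, 0.47 for Sptbn1 and 0.94 for Sptb, and genes called split into 5406 higher and 4258 lower, against 4904 and 5450. Within set 1 it gave 0.60, 0.62 and 0.61 for Ank2, Sptan1 and Sptbn1, and within set 2 0.31, 0.16, 0.35 and 0.31 for Ank2, Ank3, Sptan1 and Sptbn1. Alternatives chosen after seeing the data gave, in the order Ank2, Ank3, Sptan1, Sptb, Sptbn1, values of 0.55, 0.062, 0.72, 1.42 and 0.44 with the length trend alone removed (Ank1 0.17). They were 0.62, 0.44, 0.45, 0.56 and 0.48 with the summed exon length, and 0.52, 0.035, 0.43, 0.80 and 0.46 with a joint surface of length and GC. With the GC trend alone removed Sptbn4 was 0.31, Sptb was -0.21, and 5715 genes were higher and 4709 lower.

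Replicate numbers showed no pairing of libraries in deviations from the mean of each group within a set. Same-numbered libraries correlated at -0.176 to -0.00501, and no vehicle library correlated best with the PM library of its own number. With 2 or 3 libraries behind each mean these deviations are tied to each other, so this check cannot settle pairing. With the replicate number as a block 4318 genes were higher and 4890 lower, and no call of the 7 genes changed. With the block and the trend removed together, 3574 genes were lower, and values were -0.30 for Ank1, whose call ended, 0.50 for Ank2, 0.023 for Ank3, 0.52 for Sptan1, 1.00 for Sptb and 0.49 for Sptbn1. Counting error for Ank1 was 3.99% to 5.63% of the value per library, and set 2 had 2 vehicle libraries.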
